A study of Mus musculus with 16 samples.

Results

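Interferon-stimulated genes were described here through 9 members, Ifit1, Ifit3, Isg15, Irf7, Stat2, Oasl2, Bst2, Ifitm2 and Ifitm3, in stimulated mouse regulatory T cells. They were taken by symbol from the deposited array values, through probe sets that the platform annotation pairs with a single gene symbol. These 9 were among 22180 such genes, each was read by 1 probe set, and all 9 were among the 16760 genes bright enough to be tested. The study measured gene expression on 16 arrays in regulatory T cells (Treg cells), the CD4+ cells marked by the transcription factor Foxp3 that restrain immune responses, with and without Atg7. Atg7 is the E1-like enzyme that the conjugation steps of autophagy need. Rapamycin, which inhibits the kinase mTOR, was the other factor.

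The 4 groups held 4 arrays each, and all were C57BL/6 mice that carried Foxp3-Cre, so that Cre was present in the controls too. Mice with 1 floxed Atg7 allele (Atg7+/fl Foxp3-Cre, labelled Atg7+/-) and with both alleles floxed (Atg7fl/fl Foxp3-Cre, labelled Atg7-/-) were either left untreated or given rapamycin by intraperitoneal injection, 4 mg per kg daily for 5 days. Treg cells, positive for CD4 and Foxp3-YFP, were sorted out of lymphocytes of the spleen and of peripheral lymph nodes. All 4 groups, the untreated ones included, were then stimulated for 4 h on plates coated with antibodies to CD3 and CD28. The labels give no ages and do not say whether the arrays of a group come from different animals. The p-values therefore speak only to the variation among these arrays, part of which could be technical.

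Type I interferons bind a receptor made of Ifnar1 and Ifnar2, which acts through the kinases Jak1 and Tyk2 to phosphorylate Stat2. Stat2 and Irf9 are subunits of the complex ISGF3, which binds a DNA element called the interferon-stimulated response element (ISRE) in the promoters of interferon-stimulated genes. Interferon gamma, which T cells secrete, acts through its own receptor and a second element, GAS, and some genes respond to both. Most members encode antiviral effectors. Stat2 is a subunit of ISGF3 itself, and Irf7 is the transcription factor that amplifies the production of type I interferon.

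The promoter sequences of 6 members that the results below turn on are shown to let their response elements be compared. Each is the 250 bases before the start of the gene in RefSeq on GRCm38.p6, written 5′ to 3′ along the strand of the gene, and capitals mark matches to the ISRE core (GAAA, any bases NN, GAAA) on either strand. The windows are chr19:34640639-34640888 (+ strand) for Ifit1, chr19:34583279-34583528 (+ strand) for Ifit3, chr4:156200819-156201068 (- strand) for Isg15, chr7:140955962-140956211 (- strand) for Ifitm2, chr7:141010745-141010994 (- strand) for Ifitm3 and chr8:71537473-71537722 (- strand) for Bst2.
Ifit1: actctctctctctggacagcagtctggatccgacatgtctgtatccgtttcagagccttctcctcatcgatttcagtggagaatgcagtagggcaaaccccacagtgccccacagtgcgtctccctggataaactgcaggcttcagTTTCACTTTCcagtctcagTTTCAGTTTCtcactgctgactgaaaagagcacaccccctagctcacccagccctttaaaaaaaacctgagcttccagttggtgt
Ifit3: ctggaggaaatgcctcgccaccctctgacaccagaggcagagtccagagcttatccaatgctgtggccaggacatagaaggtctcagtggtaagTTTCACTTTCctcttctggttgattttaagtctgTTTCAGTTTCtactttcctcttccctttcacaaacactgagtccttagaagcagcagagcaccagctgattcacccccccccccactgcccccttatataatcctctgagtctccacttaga
Isg15: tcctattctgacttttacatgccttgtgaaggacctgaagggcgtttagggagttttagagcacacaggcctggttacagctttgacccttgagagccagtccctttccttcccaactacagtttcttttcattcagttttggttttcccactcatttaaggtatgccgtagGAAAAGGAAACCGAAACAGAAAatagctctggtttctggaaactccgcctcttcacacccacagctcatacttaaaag
Ifitm2: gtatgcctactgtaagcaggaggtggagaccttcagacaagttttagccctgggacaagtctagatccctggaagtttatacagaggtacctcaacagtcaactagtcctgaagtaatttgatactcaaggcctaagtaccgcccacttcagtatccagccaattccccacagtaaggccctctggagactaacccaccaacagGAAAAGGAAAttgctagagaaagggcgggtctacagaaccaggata
Ifitm3: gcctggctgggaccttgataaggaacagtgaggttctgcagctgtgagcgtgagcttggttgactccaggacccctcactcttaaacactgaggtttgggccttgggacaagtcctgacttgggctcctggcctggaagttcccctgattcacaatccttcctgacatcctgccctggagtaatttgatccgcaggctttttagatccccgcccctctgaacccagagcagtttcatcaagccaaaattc
Bst2: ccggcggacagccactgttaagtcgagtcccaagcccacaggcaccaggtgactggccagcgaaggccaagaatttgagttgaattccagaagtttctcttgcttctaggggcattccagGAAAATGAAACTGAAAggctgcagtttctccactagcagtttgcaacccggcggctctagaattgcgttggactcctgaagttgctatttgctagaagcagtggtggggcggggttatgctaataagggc
All 9 members had an entry in the promoter table, and 6 of the 9 windows held the ISRE core, against 3.46% of 27025 genes and 2.98% of 32851 windows of the same length. Ifit1 and Ifit3 each held 2 separate matches, written on their strand as TTTCACTTTC and then TTTCAGTTTC. The Isg15 window held 3 overlapping matches in 1 run, from 78 to 57 bases before the start. Bst2 held 2 overlapping matches, Ifitm2 held 1 and Stat2 held 1. No match was found in the windows of Irf7, Oasl2 and Ifitm3, which says only that these letters were not in those 250 bases. The GAS motif TTCNNNGAA was found in the Bst2 window alone among the members, as TTCCAGGAA overlapping the first ISRE core match, and in 8.13% of all genes. Of 34 other type I interferon-stimulated genes with an entry, 10 held the ISRE core (29.4%). The RefSeq record places Ifitm2 and Ifitm3 on chromosome 7 with 1 coding gene, Ifitm1, between them, and Ifit3 on chromosome 19 next to Ifit2. Genes of these families resemble each other, so shared probe sequence may make their values uncertain.

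The values below are log2 signals, 1 per array. A difference of 1 on this scale is a factor of 2 in signal on the assumption that the deposited base is 2. Tests were limma's moderated test over all 16 arrays, and "called" means a Benjamini-Hochberg adjusted p under 0.05 among the 16760 genes. The 4 comparisons share groups, so they are not independent of each other. Correlations between arrays over the genes tested were 0.973 to 0.994. Replicate 3 of rapamycin Atg7-/- stood apart, with the lowest array median (4.41, against up to 4.63) and the largest root mean square deviation from its group mean (0.242, against 0.137 to 0.214 on the other arrays). All 7 matched Treg and T cell markers were above the dimness threshold in every group, and Foxp3 had group means of 11.26, 10.86, 11.34 and 10.99 in untreated Atg7+/-, untreated Atg7-/-, rapamycin Atg7+/- and rapamycin Atg7-/- cells. The Atg7 probe set had means of 6.66, 6.38, 6.78 and 6.48 in the same order. Whether it lies in the floxed part is not given in the sources used here, so it does not check the genotype labels.

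Ifit1 and Ifit3 fell with rapamycin in both genotypes, and Isg15 fell with rapamycin in Atg7-/- cells. Ifitm2 was 2.60-fold higher in Atg7-/- than in Atg7+/- cells under rapamycin, and without rapamycin no member passed the test between genotypes. In RNA of a whole cell population, less RNA per cell and fewer cells of a kind that carries the RNA cannot be told apart. In numbers, 0 of 9 members were called between untreated genotypes, where 3.14% of all genes were. With rapamycin in Atg7+/- cells, 2 of 9 were called, both lower, where 14.1% of all genes were called and 8.11% were called lower. There 3 members had all rapamycin arrays below all untreated ones (Ifit1, Ifit3 and Ifitm2), as had 13.1% of all genes. With rapamycin in Atg7-/- cells, 3 of 9 were called, all lower, where 20% of all genes were called and 11.1% called lower. Arrays without overlap, lower with rapamycin, were seen there in 2 members (Ifit3 and Isg15) and in 11.6% of all genes. Between genotypes under rapamycin 1 of 9 was called, higher in Atg7-/- cells, where 3.24% of all genes were called and 1.91% called higher. It was also the 1 member whose Atg7-/- arrays all lay above the Atg7+/- arrays there, as in 6.01% of all genes. The median log2 fold change of the 9 members was 0.10 between untreated genotypes (0.02 over all genes tested) and -0.29 with rapamycin in Atg7+/- cells (-0.03 over all genes). It was -0.15 with rapamycin in Atg7-/- cells (-0.04 over all genes) and 0.14 between genotypes under rapamycin (0.02 over all genes).

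Some markers of T cells were lower with rapamycin, as were Ifit1, Ifit3 and, in Atg7-/- cells, Isg15. Of the 7 matched Treg and T cell markers, 3 were called lower with rapamycin in Atg7+/- cells (42.9%) and 4 in Atg7-/- cells (57.1%), none higher. Among all genes 8.11% and 11.1% were called lower. The coreceptor Cd4 fell by 0.67 and by 0.75, and the T cell receptor chains Cd3e and Cd3g fell too, while Foxp3 and Il2ra were not called in either comparison. In Atg7-/- cells Ctla4, an inhibitory receptor of Treg cells, fell by 0.37. Between untreated genotypes 1 of the 7 was called (14.3%, where 3.14% of all genes were). This was Foxp3, lower in Atg7-/- cells and without overlap of the arrays. The summed linear signal of the 7 was 12698 to 13651 and 12704 to 13963 in untreated Atg7+/- and Atg7-/- cells, against 11888 to 12587 and 11750 to 12129 with rapamycin. For the 6 matched dendritic cell markers it was 278 to 317 and 293 to 304 untreated. With rapamycin it was 256 to 276 and 237 to 253. Not all of the 6 fell. In Atg7+/- cells 2 were higher and 4 lower with rapamycin, with 1 called higher and 1 called lower. There the mean of Xcr1 went from 5.68 to 4.58 and that of Flt3 from 4.11 to 4.66. In Atg7-/- cells 1 was higher and 5 lower, with 0 called higher and 2 called lower. The part of these shifts in the members' values was not tested.

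**Figure D1:**
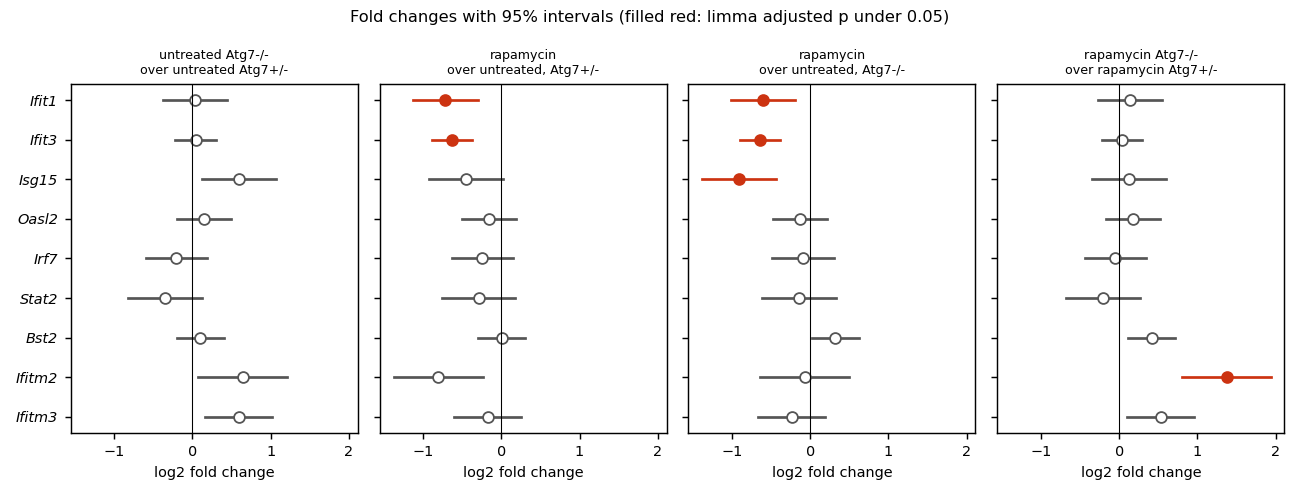
Log2 fold change of each member in the 4 comparisons, with 95% intervals from the moderated fit, and filled red points for an adjusted p under 0.05. Ifit1 and Ifit3 lie below 0 in both rapamycin comparisons, Isg15 is called with rapamycin in Atg7-/- cells (-0.91), and Ifitm2 is the only member called between genotypes, under rapamycin (1.38).

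Ifit1 and Ifit3 encode cytoplasmic tetratricopeptide repeat proteins that bind viral RNA or the proteins that sense it. Ifit3 read 7.23, 6.98, 7.03 and 6.90 on the untreated Atg7+/- arrays and 7.13, 7.05, 7.01 and 7.13 on the untreated Atg7-/- arrays. Under rapamycin the values were 6.28, 6.55, 6.30 and 6.48 in Atg7+/- cells and 6.64, 6.54, 5.99 and 6.58 in Atg7-/- cells. Every rapamycin array was thus below every untreated array, in either genotype, and the genotypes overlapped. Ifit3 fell by 0.63 on the log2 scale in Atg7+/- cells (SE 0.123, adjusted p = 0.00305, 1.55-fold lower) and fell by 0.64 in Atg7-/- cells (SE 0.123, adjusted p = 0.00163, 1.56-fold lower). Both calls held under all 27 alternatives. Between genotypes it differed by 0.04 untreated (95% interval -0.22 to 0.30) and by 0.03 under rapamycin (-0.23 to 0.29).

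Ifit1 read 5.55, 4.99, 5.80 and 5.49 on the untreated Atg7+/- arrays and 5.12, 5.45, 5.88 and 5.52 on the untreated Atg7-/- arrays. The rapamycin arrays read 4.59, 4.79, 4.94 and 4.66 in Atg7+/- cells and 4.70, 4.75, 5.49 and 4.59 in Atg7-/- cells. In Atg7+/- cells the rapamycin arrays were all below the untreated ones. In Atg7-/- cells replicate 3 under rapamycin lay within the untreated range. Ifit1 fell by 0.71 with rapamycin in Atg7+/- cells (SE 0.195, adjusted p = 0.0209, 1.64-fold lower) and fell by 0.61 in Atg7-/- cells (SE 0.195, adjusted p = 0.0364, 1.52-fold lower). The first call was lost without untreated Atg7+/- replicate 1 (adjusted p = 0.0514), untreated Atg7+/- replicate 3 (0.0721) or rapamycin Atg7+/- replicate 1 (0.0609). The second was lost without untreated Atg7-/- replicate 2, 3 or 4 (0.0608, 0.111 and 0.0694) or rapamycin Atg7-/- replicate 1, 2 or 4 (0.0819, 0.0875 and 0.107), and under other settings given in the closing section.

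Isg15, a ubiquitin-like protein that is conjugated to other proteins and also secreted, read 5.75, 6.18, 6.20 and 5.75 on the untreated Atg7+/- arrays and 6.52, 6.605, 6.70 and 6.42 on the untreated Atg7-/- arrays. After rapamycin the signal was 4.92, 5.53, 5.81 and 5.82 in Atg7+/- cells and 4.95, 5.88, 6.23 and 5.54 in Atg7-/- cells. All untreated Atg7-/- arrays were thus above all arrays of the other 3 groups. Isg15 fell by 0.91 with rapamycin in Atg7-/- cells (SE 0.226, adjusted p = 0.00859, 1.88-fold lower), and this call held under all 27 alternatives. In Atg7+/- cells the difference was -0.45 (95% interval -0.93 to 0.02, adjusted p = 0.196), with overlapping arrays. The untreated difference between genotypes was 0.59 (SE 0.226, adjusted p = 0.170, 1.51-fold), which did not pass the test over all groups. It did when only the 2 untreated groups were fitted (adjusted p = 0.0240). The SD was 0.25 and 0.12 in the untreated groups, against 0.42 and 0.54 in the rapamycin groups. Under rapamycin the genotypes overlapped, with a difference of 0.13.

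**Figure D2:**
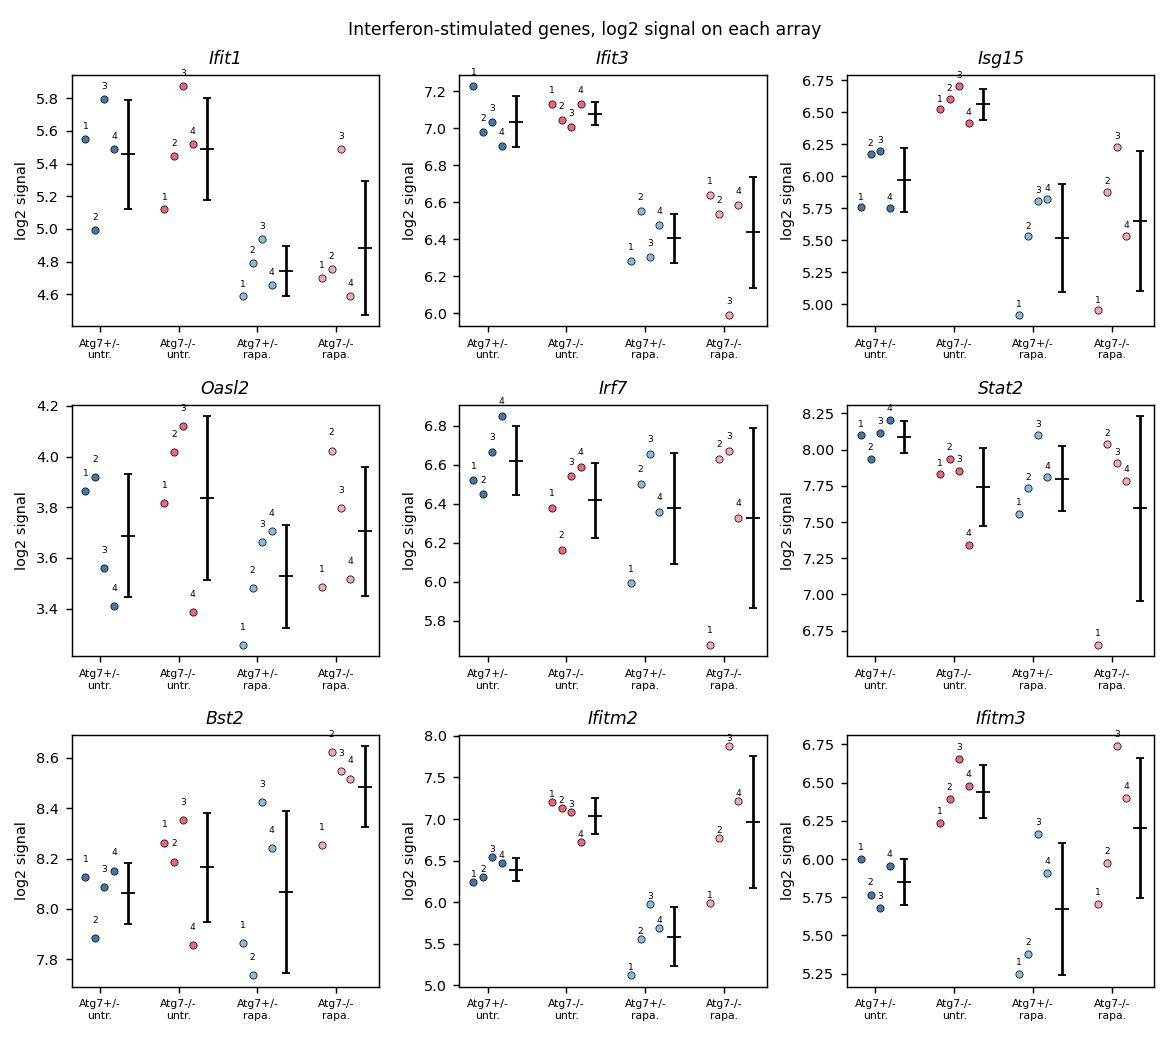
Log2 signal of each member on each of the 16 arrays (points, numbered by replicate) with the group mean and SD (black bar, n = 4), for untreated and rapamycin Atg7+/- and Atg7-/- cells. The Ifit3 arrays of both rapamycin groups lie at or below 6.64 and the untreated ones at or above 6.90, and the rapamycin Atg7-/- arrays of Ifitm2 spread from 5.99 to 7.87.

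Ifitm2 and Ifitm3 encode small membrane proteins that restrict the entry of enveloped viruses. Ifitm2 read 6.25, 6.31, 6.54 and 6.48 on the untreated Atg7+/- arrays and 7.20, 7.14, 7.08 and 6.72 on the untreated Atg7-/- arrays. With rapamycin it read 5.12, 5.56, 5.98 and 5.69 in Atg7+/- cells and 5.99, 6.78, 7.87 and 7.21 in Atg7-/- cells. Atg7-/- arrays were above Atg7+/- arrays in both settings without overlap, although the nearest arrays under rapamycin read 5.98 and 5.99. Ifitm2 was higher by 1.38 in Atg7-/- cells under rapamycin (SE 0.271, adjusted p = 0.0129, 2.60-fold). The value ran from 1.07 to 1.70 over 27 alternatives. The call was lost without rapamycin Atg7+/- replicate 2 (adjusted p = 0.0525) and when only the 2 rapamycin groups were fitted (0.102). Between untreated groups Ifitm2 differed by 0.64 (SE 0.271, adjusted p = 0.219), and with only those groups in the fit the adjusted p was 0.0138.

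With rapamycin in Atg7+/- cells all 4 Ifitm2 arrays were below the untreated ones, by 0.81 in the mean (SE 0.271, adjusted p = 0.0549), just past the threshold. It was called under 10 of 27 alternatives, and the adjusted p ran from 0.00315 to 0.161. Those 10 were the fit of only the groups compared (0.00689), array weights (0.0103), the replicate number as a block (0.0279), quantile normalization (0.0343), the 50th percentile filter (0.0473) and 5 removals of arrays. The removals were rapamycin Atg7+/- replicate 3 (0.0428), rapamycin Atg7-/- replicate 1 (0.0121), rapamycin Atg7-/- replicate 3 (0.0148), both rapamycin arrays numbered 1 (0.0436) and rapamycin Atg7-/- replicates 1 and 3 together (0.00315). In Atg7-/- cells rapamycin left the mean at -0.07 from untreated (95% interval -0.64 to 0.50). The difference of the 2 rapamycin effects on Ifitm2 was 0.73 (95% interval -0.07 to 1.54, adjusted p = 0.797), so the effects were not shown to differ.

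Ifitm3 read 6.00, 5.77, 5.68 and 5.95 on the untreated Atg7+/- arrays and 6.24, 6.39, 6.66 and 6.48 on the untreated Atg7-/- arrays. The rapamycin values were 5.25, 5.38, 6.17 and 5.91 in Atg7+/- cells and 5.70, 5.97, 6.74 and 6.40 in Atg7-/- cells. The untreated genotypes did not overlap, while the rapamycin groups did. The difference between genotypes was 0.59 untreated (SE 0.206, adjusted p = 0.131) and 0.53 under rapamycin (SE 0.206, adjusted p = 0.170), and neither passed the test. With only the untreated groups in the fit the adjusted p was 0.0147. Untreated arrays without overlap, which 3 members showed higher in Atg7-/- cells (Isg15, Ifitm2 and Ifitm3) and Stat2 lower, were found higher in 8.17% and lower in 5.97% of all genes.

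Both Ifitm genes are also expressed by myeloid cells, and 7 of 8 listed macrophage and monocyte markers were matched, all above the dimness threshold. Their mean log2 signal on the 4 rapamycin Atg7-/- arrays was 4.58, 5.02, 5.58 and 4.96, in the order of the replicate numbers, and replicate 3 was the highest there for both Ifitm genes and for the markers. Their summed linear signal ran from 296 to 332 in untreated Atg7+/-, 339 to 386 in untreated Atg7-/-, 322 to 462 in rapamycin Atg7+/- and 225 to 556 in rapamycin Atg7-/- cells. None of the 7 was called in any comparison. In the order untreated Atg7+/-, untreated Atg7-/-, rapamycin Atg7+/- and rapamycin Atg7-/-, the monocyte marker Ly6c2 had group means of 5.07, 5.71, 4.80 and 5.55, and the lysozyme gene Lyz2 had means of 6.02, 6.47, 7.02 and 6.16. Ly6c2 thus followed the order of Ifitm2 in being higher in Atg7-/- cells in both settings, although it was not called (0.64 and 0.75, adjusted p = 0.372 and 0.268). The list as a whole did not follow that order. Between untreated genotypes 6 of the 7 markers were higher in Atg7-/- cells and 1 lower, but under rapamycin 2 were higher and 5 lower. The defining markers Csf1r and Adgre1 had group means of 4.49 to 4.83 and 3.89 to 4.14.

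All 7 neutrophil markers were matched and above the dimness threshold. Their summed linear signal followed the Ifitm values only in part. It was 132 to 213 in untreated Atg7+/- and 221 to 264 in untreated Atg7-/- cells, without overlap, and 121 to 178 in rapamycin Atg7+/- cells. In rapamycin Atg7-/- cells it was 407 in replicate 3 against 127 to 214 on the other arrays. There replicate 1, the lowest for both Ifitm genes, had a sum of 214. Replicate 4, where Ifitm2 read 7.21, had the lowest sum, 127. The calprotectin genes S100a8 and S100a9 had means of 4.94, 5.99, 4.94 and 5.57 and of 5.62, 6.36, 5.43 and 5.92 in the order of groups above. Ly6g and Csf3r had means of 3.62, 3.56, 3.82 and 3.78 and of 3.78, 3.78, 3.70 and 3.73 in the same order. Between untreated genotypes 5 of the 7 were higher in Atg7-/- cells and 2 lower, and under rapamycin 4 were higher and 3 lower. None of the 7 was called between genotypes, and Cxcr2 and Mpo were called lower with rapamycin in Atg7-/- cells, at -0.63 and -0.40. The sort selected cells positive for CD4 and Foxp3-YFP, and how many macrophages, monocytes or neutrophils remained was not measured here. The part of such cells in the Ifitm values was not tested. Without rapamycin Atg7-/- replicates 1 and 3 together, an alternative chosen after seeing the data, the Ifitm2 difference under rapamycin was 1.41 (adjusted p = 0.00411).

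**Figure D3:**
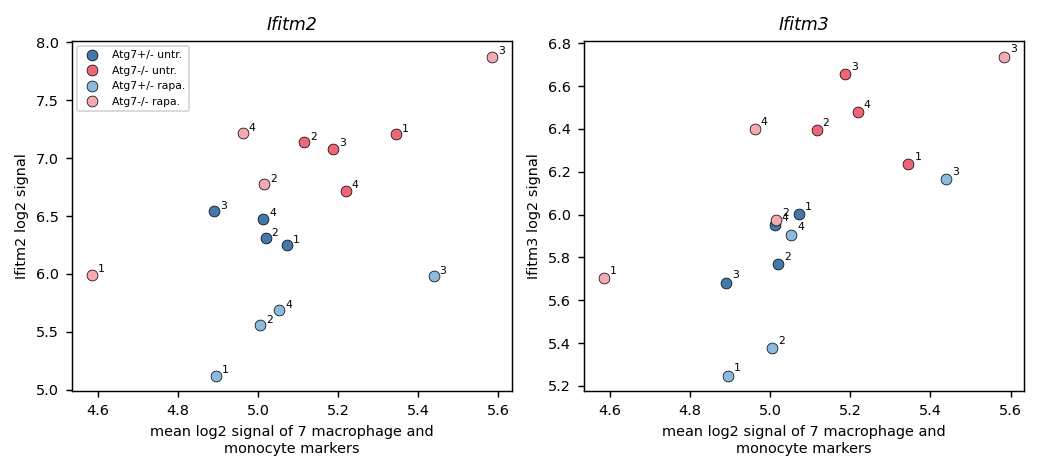
Log2 signal of Ifitm2 and of Ifitm3 against the mean log2 signal of 7 macrophage and monocyte markers, 1 point per array, coloured by group. Within the rapamycin Atg7-/- group replicate 3, with a marker mean of 5.58, has the highest signal of both genes, and replicate 1, with 4.58, the lowest. Replicates 2 and 4, with marker means of 5.02 and 4.96, go in the reverse order (Ifitm2 6.78 and 7.21). The marker means of the rapamycin Atg7+/- arrays, 4.90 to 5.44, lie within the range of the rapamycin Atg7-/- arrays.

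Bst2 encodes tetherin, which holds budding virus at the cell surface and is also a marker of plasmacytoid dendritic cells. It read 8.13, 7.89, 8.09 and 8.15 on the untreated Atg7+/- arrays and 8.26, 8.19, 8.35 and 7.86 on the untreated Atg7-/- arrays. On the rapamycin arrays it read 7.86, 7.74, 8.42 and 8.24 in Atg7+/- cells and 8.25, 8.62, 8.55 and 8.52 in Atg7-/- cells. The groups overlapped in every comparison. With rapamycin in Atg7-/- cells Bst2 was the 1 member of 9 with a positive difference, 0.32 (SE 0.142, adjusted p = 0.120). Between genotypes under rapamycin it differed by 0.42 (SE 0.142, adjusted p = 0.112). The second was called without rapamycin Atg7+/- replicate 3 (adjusted p = 0.0397). The 7 other plasmacytoid dendritic cell markers had means of 5.06, 5.45, 5.77 and 5.24 on the 4 rapamycin Atg7-/- arrays. Their summed linear signal was 311 to 339 in untreated Atg7+/-, 322 to 382 in untreated Atg7-/-, 323 to 391 in rapamycin Atg7+/- and 365 to 482 in rapamycin Atg7-/- cells. Among them Ccr9 rose with rapamycin in both genotypes, by 0.48 and by 0.46 (adjusted p = 0.0194 and 0.0171), and Pacsin1 was higher by 0.44 in Atg7-/- cells under rapamycin (adjusted p = 0.0393). Siglech, the defining surface receptor of those cells, had means of 4.80 and 4.91 in untreated Atg7+/- and Atg7-/- cells. Under rapamycin its means were 5.49 and 5.11. Of the 8 listed markers, Bst2 included, 5 were higher and 3 lower in Atg7-/- cells under rapamycin. With rapamycin 6 were higher and 2 lower in Atg7+/- cells, and 7 higher and 1 lower in Atg7-/- cells. The part of plasmacytoid dendritic cells in the Bst2 values was not tested.

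Stat2 read 8.10, 7.94, 8.11 and 8.20 on the untreated Atg7+/- arrays and 7.83, 7.94, 7.85 and 7.34 on the untreated Atg7-/- arrays. With rapamycin it read 7.56, 7.73, 8.10 and 7.81 in Atg7+/- cells and 6.65, 8.04, 7.90 and 7.78 in Atg7-/- cells. The low value of 6.65 stood apart, and it came from replicate 1. Its largest difference was -0.35 between untreated genotypes (95% interval -0.82 to 0.12, adjusted p = 0.454), where the arrays did not overlap but the nearest both read 7.94. Irf7 read 6.52, 6.45, 6.67 and 6.85 in untreated Atg7+/- and 6.38, 6.16, 6.54 and 6.59 in untreated Atg7-/- cells. It read 5.99, 6.50, 6.66 and 6.36 in rapamycin Atg7+/- and 5.68, 6.63, 6.67 and 6.33 in rapamycin Atg7-/- cells. All 4 groups overlapped, and its differences lay between -0.24 and -0.05. Irf9, which binds Stat2 in ISGF3, was not called in any comparison, with differences of -0.17 to 0.16.

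Oasl2, an oligoadenylate synthetase-like protein, was the dimmest member, with array values of 3.26 to 4.12 around the threshold for testing (3.55). Its differences lay between -0.16 and 0.18, and none was called.

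No gene was called for a difference between the rapamycin effects of the genotypes (0 of 9 members, 0% of all genes tested), while 6.28% of all genes and 0 members had an unadjusted p under 0.05 in limma's test. The members' values ran from -0.46 for Isg15 (95% interval -1.13 to 0.21) to 0.73 for Ifitm2. For Ifit3, which fell in both genotypes, the 95% interval was -0.38 to 0.36. An interval that includes 0 does not show that the effects are alike.

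Members deviated together from array to array within a group. Under rapamycin, replicate 1 of Atg7+/- was the lowest of its group in 8 of 9 members, and replicate 1 of Atg7-/- was the lowest in 7 of 9. The mean deviation over the members was -0.32 and -0.47 on these arrays, against -0.15 to 0.16 on the 8 untreated arrays. The highest were replicate 3 of each rapamycin group, at 0.26 and 0.33. Over the 36 pairs of members the correlation of deviations from the group means had a median of 0.51 (range -0.62 to 0.81, 16 arrays), and all arrays without removal of group means gave a median of 0.41 (range -0.34 to 0.86). The points share arrays and their normalization, so these are descriptions. The mean correlation between members' deviations was 0.33, against 0.01 over all genes tested. Ifit3 went the other way, with a correlation of -0.38 between its deviations and the mean of the scaled members, Ifit3 included. The SD over arrays was higher with rapamycin than without in 6 of 9 members in Atg7+/- cells and 7 of 9 in Atg7-/- cells, against 55.7% and 57.9% of all genes.

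**Figure D4:**
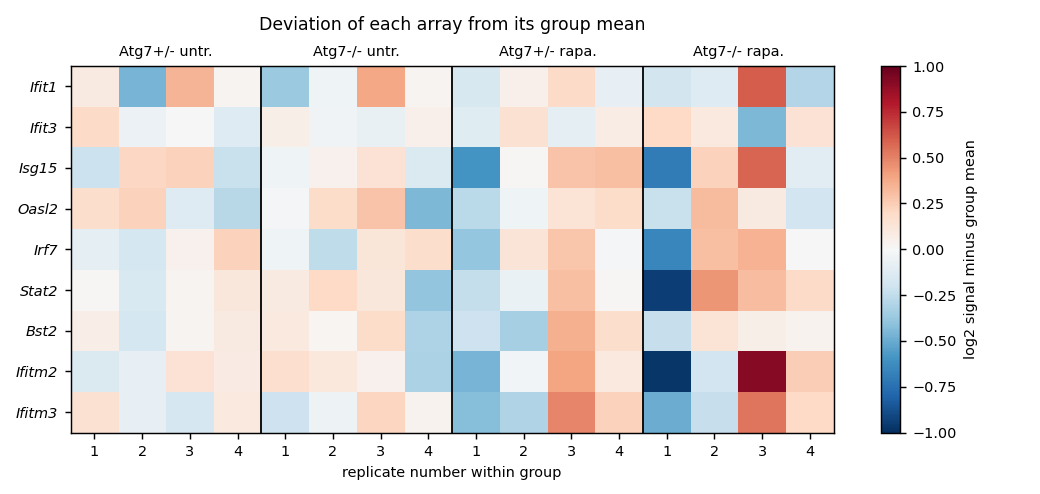
Log2 signal minus the group mean for each member (rows) on each array (columns, by group and replicate number). Replicate 1 of both rapamycin groups is low in most members (8 and 7 of 9 are lowest there), while Ifit3 is lowest in replicate 3 of rapamycin Atg7-/-.

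The genes whose scaled pattern over the 16 arrays was most like the mean of the members were Sh3bp5 (r = 0.948), Npc2 (0.945), Lgals3bp (0.943), Zbp1 (0.933), Tmsb4x (0.921) and Cnn2 (0.916). Lgals3bp and Zbp1 are themselves interferon-stimulated genes. For deviations from the group means they were Fam20b (0.958), Actn4 (0.951), Slamf7 (0.949), Pip4k2a (0.935), Cat (0.929) and Creb3 (0.927). Among the members Isg15 was closest to that mean over all arrays (0.878) and Ifit3 farthest (0.400). Each member is itself part of that mean, which raises its correlation, so these values cannot be set beside those of the other genes.

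The rest of the pathway was read from lists of ligands, receptors and signalling proteins, sensors and other targets. Interferon gamma moved most. Ifng read 7.35, 7.09, 8.02 and 7.54 in untreated Atg7+/- cells and 9.47, 9.15, 9.64 and 10.11 in untreated Atg7-/- cells. With rapamycin it read 5.59, 5.26, 5.96 and 5.50 in Atg7+/- cells and 5.47, 6.53, 8.31 and 6.73 in Atg7-/- cells, so that replicate 3 stood highest. Ifng was 4.27-fold higher in untreated Atg7-/- cells (log2 2.09, SE 0.392, adjusted p = 0.00622). It fell by 1.92 with rapamycin in Atg7+/- cells (adjusted p = 0.00409) and fell by 2.83 in Atg7-/- cells (adjusted p = 0.000117), and these 3 calls held under all 27 alternatives. Under rapamycin the difference between genotypes was 1.18 (SE 0.392, adjusted p = 0.103), which did not pass the test. The lowest and highest rapamycin Atg7-/- arrays of Ifng were those of Ifitm2. Ifnb1, the interferon beta gene, stayed below the dimness threshold, with group means of 2.52 to 2.72. Of 20 matched ligand genes 12 were tested: Ifna4 rose by 1.14 with rapamycin in Atg7+/- cells (adjusted p = 0.00102), and Ifnl3 fell by 0.82 and 0.78 with rapamycin in Atg7+/- and Atg7-/- cells (adjusted p = 0.00544 and 0.00475). The genes for the alpha interferons are near-identical copies, so these values are uncertain.

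Of 16 receptor and signalling genes tested, 2 were called lower between untreated genotypes (12.5%, where 3.14% of all genes were called), Ifngr1 (-0.85, adjusted p = 0.00369) and Ifnar1 (-0.36, 0.0383). With 1 array left out at a time that count ran from 1 to 4. Ifngr1, the ligand-binding chain of the interferon gamma receptor, read 10.31, 10.31, 10.33 and 10.26 in untreated Atg7+/- cells and 9.44, 9.57, 9.52 and 9.26 in untreated Atg7-/- cells, without overlap. It rose by 0.71 with rapamycin in Atg7-/- cells (adjusted p = 0.00279). The Ifnar1 call was lost without any of untreated Atg7+/- replicates 1, 3 and 4, untreated Atg7-/- replicates 1, 3 and 4 or rapamycin Atg7+/- replicate 4 (adjusted p = 0.0512 to 0.118). The phosphatase Ptpn6 fell with rapamycin in both genotypes, by 0.72 and 0.50 (adjusted p = 0.000156 and 0.00181), and Stat3 fell by 0.59 in Atg7-/- cells (adjusted p = 0.00141). Counts in this list were 2 lower with rapamycin in Atg7+/- cells (12.5%, against 14.1% of all genes), 1 higher and 4 lower in Atg7-/- cells (31.2%, against 20%), and 1 higher and 2 lower between genotypes under rapamycin (18.8%, against 3.24%). With 1 array left out these counts, both directions together, ran from 1 to 5, from 3 to 6 and from 0 to 4.

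Of 17 nucleic acid sensors and adaptors tested, which start the production of type I interferon, 4 were called lower with rapamycin in Atg7+/- cells and 6 in Atg7-/- cells, none higher. These are 23.5% and 35.3% of the list, where 8.11% and 11.1% of all genes were called lower and 14.1% and 20% were called in all. With 1 array left out at a time the counts ran from 3 to 7 and from 4 to 8. Sting1, the adaptor that passes on the cytosolic DNA signal, read 8.63, 8.76, 8.90 and 8.66 in untreated Atg7+/- cells and 7.58, 7.45, 7.79 and 7.70 with rapamycin. It fell by 1.11 (adjusted p = 7.65e-05) and, in Atg7-/- cells, fell by 0.79 (adjusted p = 0.000704). Ticam1 and Mavs, the adaptors of Tlr3 and of the cytosolic RNA sensors, fell in both genotypes by 0.47 to 0.65. Between genotypes under rapamycin Sting1 was higher in Atg7-/- cells (0.61, adjusted p = 0.0214), a call lost without rapamycin Atg7+/- replicate 1 or 2 (0.0570 and 0.0976) or rapamycin Atg7-/- replicate 3 or 4 (0.0627 and 0.0597).

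Among 37 other type I interferon-stimulated genes tested, of 42 matched, 5 were called lower and 0 higher with rapamycin in Atg7+/- cells (13.5%), and 7 were called lower and 0 higher in Atg7-/- cells (18.9%). Of all genes 14.1% and 20% were called in either direction, and 8.11% and 11.1% were called lower. The first count was 3 without rapamycin Atg7+/- replicate 1 or 2, 8 without rapamycin Atg7+/- replicate 3 or rapamycin Atg7-/- replicate 3, and 10 without rapamycin Atg7-/- replicate 1. The second was 11 without rapamycin Atg7-/- replicate 3. Their medians were -0.24 and -0.12, against -0.03 and -0.04 over all genes. Epsti1 fell by 0.71 and 0.70 in the 2 genotypes (adjusted p = 0.0140 and 0.0107), and Ly6e fell by 0.68 and 0.50 (adjusted p = 0.00110 and 0.00560). Sp110 fell by 0.62 in Atg7+/- cells (adjusted p = 0.00311) and Isg20, a 3′ exonuclease, fell by 0.58 in Atg7-/- cells (adjusted p = 0.00168). Lgals3bp fell by 0.80 in Atg7+/- cells (adjusted p = 0.0156), a call lost without rapamycin Atg7+/- replicate 1 (0.0503) or 2 (0.0552). Usp18, the protease that removes Isg15 from proteins and dampens receptor signalling, fell by 0.87 in Atg7-/- cells (adjusted p = 0.0220). That call was lost without untreated Atg7-/- replicate 2 or 3 (0.0625 and 0.0541) or rapamycin Atg7-/- replicate 1 (0.0595). Between genotypes 0 of the 37 were called without rapamycin, where Isg20 had the smallest p (0.40, adjusted p = 0.0575) and 5 had an unadjusted p under 0.05 in limma's test. Under rapamycin 0 were called too, where Lgals3bp had the smallest p (0.64, adjusted p = 0.0940) and 6 had an unadjusted p under 0.05. Without rapamycin Atg7-/- replicate 1 that last count was 5 called.

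Of 24 interferon-gamma-inducible GTPase and antigen presentation genes tested, 5 were called higher and 0 lower with rapamycin in Atg7-/- cells (20.8%, where 20% of all genes were called), and 0 higher and 1 lower in Atg7+/- cells (4.17%, where 14.1% of all genes were). The 20% and 14.1% count both directions, and 11.1% and 8.11% of all genes were called lower. The share of all genes called higher alone in Atg7-/- cells is therefore well below 20%, so the 20.8% is not at that background. With 1 array left out at a time the list's counts ran from 2 to 8 and from 0 to 4. Between untreated genotypes 2 were called, both lower (8.33%, where 3.14% of all genes were called in either direction). Between genotypes under rapamycin 1 was called, higher (4.17%, where 3.24% of all genes were called and 1.91% called higher). With 1 array left out these 2 counts ran from 0 to 4 and from 0 to 3. In Atg7-/- cells Gbp5 rose by 0.84 (adjusted p = 0.00313) and the transcription factor Irf1 rose by 0.60 (adjusted p = 0.00138), both called under all 27 alternatives. Irf1 read 8.68, 8.74, 8.75 and 8.85 in untreated Atg7+/- cells and 8.20, 8.50, 8.36 and 7.97 in untreated Atg7-/- cells, and it was lower there by 0.50 (adjusted p = 0.0189). That call was lost without untreated Atg7+/- replicate 4 (0.0631) or untreated Atg7-/- replicate 1 (0.0591) or 4 (0.0645). With rapamycin it read 8.61, 8.97, 8.93 and 8.89 in Atg7-/- cells.

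**Figure D5:**
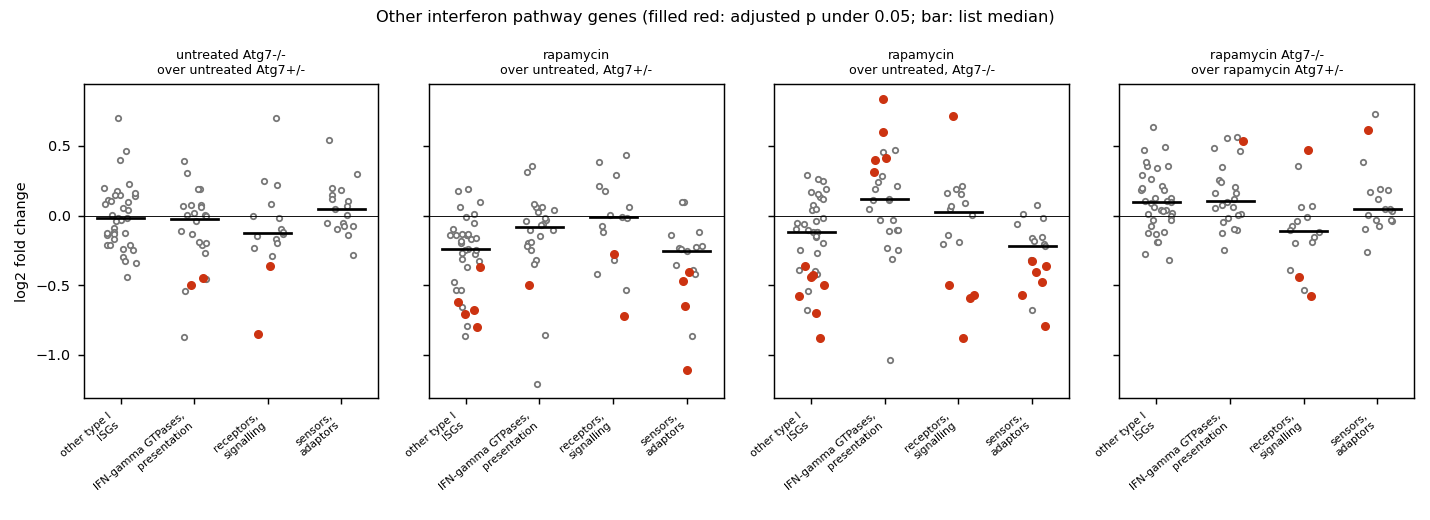
Log2 fold changes of the tested genes of 4 other interferon pathway lists (ligands are not drawn) in the 4 comparisons, with filled red points for an adjusted p under 0.05 and a bar at each list's median. With rapamycin the called type I genes (5 and 7) and sensors (4 and 6) lie below 0. In Atg7-/- cells 5 called interferon-gamma-inducible genes lie above 0 (20.8%). Of all genes 20% were called there in either direction and 11.1% were called lower, so the share called higher is well below 20%.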

How the data were processed

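The authors deposited 1 log2 signal for each of 41345 probe sets on each of 16 arrays. The submitters' processing notes name RMA and Partek 6.6. The log base is not written and was taken as 2. The sources used here do not name the genome build, the annotation or any hybridization batch. Which of the named cell sorters handled which sample is not given either. The value columns were matched to samples by accession. Precision is limited by the 4 arrays per group.

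Probe sets with 1 symbol in GEO's platform annotation numbered 23521, for 22180 genes, with the brightest probe set kept per gene. Genes were tested where the highest group mean exceeded 3.55, the 30th percentile of all values. All 16 arrays entered 1 linear model of the group means (limma 3.58.1, R 4.3.3, lmFit and eBayes, 12 residual and 5.64 prior degrees of freedom, two-sided, Benjamini-Hochberg over 16760 genes). The calculation was tested on simulated data. Whether replicate numbers pair the arrays was not settled. Correlations of same-numbered deviations were -0.08 to 0.36, and 8 of 16 arrays correlated best with an array of their own number.

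The members, gene lists and tests were chosen with earlier results of these data known. Named genes were the members and, per list and comparison, up to 4 called genes with the largest change, or the gene with the smallest p. Genes whose call changed when an array was left out were named only in part. Alternatives covered probe sets, dimness filters, normalization, the replicate block, eBayes options, array weights, fits of only the groups compared, and left-out arrays. List genes without a single-symbol probe set are not analysed here.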

Additional observations from a re-analysis of the deposited data

Results flagged for a closer look

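Ifit3 read 5.99 in replicate 3 of rapamycin Atg7-/-, below the other 3 arrays of that group (6.54 to 6.64), a gap larger than Dixon's 95% critical value allows in a group of 4. Chance gives about 1 such value in 20 groups, and 36 groups (9 members in 4 groups) were examined. The same array was the highest of its group in 5 of the other members. Without it, the fall of Ifit3 with rapamycin in Atg7-/- cells was smaller in size (-0.49) and remained called.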

How the results depend on the processing

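Of the 6 called member values, 146 of 162 alternatives kept the direction and the call, 16 lost the call and 0 reversed it. Ifit3 in both genotypes and Isg15 in Atg7-/- cells kept their calls throughout. Ifit1 with rapamycin in Atg7-/- cells was also lost with quantile normalization (adjusted p = 0.0552), arrays centred on their medians (0.0649), only the groups compared in the fit (0.0681) and both rapamycin arrays numbered 1 left out (0.0890). The last setting also ended the Ifit1 call in Atg7+/- cells (0.0608). It and the joint removal of rapamycin Atg7-/- arrays 1 and 3 were chosen after seeing the data. The cause of each change was not tested.

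The count of members called between untreated genotypes, 0, became 3 with only those groups in the fit, 1 with array weights, 1 without both rapamycin arrays numbered 1 and 1 without rapamycin Atg7-/- arrays 1 and 3. Under rapamycin the count of 1 between genotypes became 0 with only those groups. With 1 array left out at a time it ran from 0 to 2, and the counts with rapamycin ran from 1 to 3 in Atg7+/- cells and from 2 to 3 in Atg7-/- cells. The other type I genes, 0 of 37 between untreated genotypes, gave 1 at the 50th percentile filter, 1 with the replicate block, 3 with only those groups, 1 with array weights, 2 without both rapamycin arrays numbered 1, 4 without rapamycin Atg7-/- arrays 1 and 3, and 0 to 2 with 1 array left out. With rapamycin in Atg7+/- cells their 5 became 8 with the replicate block, 9 with only those groups, 10 with array weights and 10 without rapamycin Atg7-/- arrays 1 and 3, and ran from 3 to 10 with 1 array left out. In Atg7-/- cells they ran from 5 to 11. Between genotypes under rapamycin they were 1 without both rapamycin arrays numbered 1, and 0 to 5 with 1 array left out. The replicate block, for numbers whose pairing of the arrays was not settled, brought Ifitm2 with rapamycin in Atg7+/- cells past the threshold (0.0279). It ended no member's call.

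Of 1201 alternatives of member values, 62 reversed a sign, each of a value that was not called. With quantile normalization and with median centring, in that order, Bst2 with rapamycin in Atg7+/- cells gave -0.0024 and -0.039, Irf7 between genotypes under rapamycin gave 0.018 and 0.0079, and the difference of rapamycin effects on Ifit3 gave 0.066 and 0.052. That difference on Ifitm3 gave 0.00013 with median centring. With array weights the differences of rapamycin effects were -0.057 for Ifit1, 0.046 for Ifit3 and -0.063 for Oasl2. Without both rapamycin arrays numbered 1, the rapamycin values in Atg7-/- cells were 0.25 for Ifitm2, 0.13 for Irf7 and 0.17 for Stat2, and the genotype values under rapamycin were -0.075 for Ifit3, 0.038 for Irf7 and 0.028 for Stat2. Without rapamycin Atg7-/- arrays 1 and 3, the rapamycin values in Atg7-/- cells were 0.061 for Irf7 and 0.17 for Stat2. The genotype values under rapamycin were then -0.071 for Ifit1, 0.10 for Irf7 and 0.11 for Stat2, and the differences of rapamycin effects -0.10 for Ifit1 and 0.11 for Ifit3. With 1 array left out at a time, genotype values without rapamycin ran from -0.12 to 0.16 for Ifit1 and from -0.0013 to 0.11 for Ifit3. Under rapamycin they ran from -0.062 to 0.24 for Ifit1, -0.033 to 0.18 for Ifit3, -0.18 to 0.17 for Irf7, -0.071 to 0.36 for Isg15 and -0.35 to 0.11 for Stat2. Rapamycin values ran from -0.11 to 0.11 for Bst2 in Atg7+/- cells, and in Atg7-/- cells from -0.37 to 0.25 for Ifitm2, -0.21 to 0.13 for Irf7 and -0.29 to 0.17 for Stat2. The differences of rapamycin effects ran from -0.095 to 0.26 for Ifit1, -0.076 to 0.14 for Ifit3, -0.24 to 0.11 for Ifitm3, -0.12 to 0.13 for Oasl2 and -0.0045 to 0.46 for Stat2. Signal near the threshold limits Oasl2.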
